A study of Mus musculus with 6 samples.

Results

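The 6 Reg genes described here, Reg3b, Reg3g, Reg3d, Reg3a, Reg1 and Reg4, are the rows of that name among 690 genes in the authors' deposited table of mouse small-intestinal enteroids with and without IL-22. They were chosen with their change in this contrast known, 3 being listed as higher with IL-22 (as were 38.7% of the 690 genes) and 3 as lower (as were 61.3%), so their levels and ratios are given as a description, with no test. Enteroids are organoids grown from intestinal crypts, and IL-22 is a cytokine made by immune cells that acts on the epithelium. All cultures came from non-NEC mice on the C57BL/6J background (NEC is necrotizing enterocolitis). They were kept for 4 days in a differentiation medium with EGF, Noggin and R-spondin 1.

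The IL-22 group was 2 wells from 1 mouse, given recombinant mouse IL-22 for 24 hours, and the control group was 4 untreated wells, 2 from each of 2 mice. The wells of a mouse are technical replicates per the labels, which do not say whether mouse 1 of the IL-22 group and mouse 1 of the controls were the same animal. The spread between the IL-22 wells is therefore technical, that between control wells holds wells and mice together, and IL-22 cannot be told apart from the animal of the treated wells if that animal was a different one. The labels give a dose of 2 ng/ml and an age of 6 weeks, whereas the table's header names 100 ng and the protocol names adult mice of 8 weeks or neonates of 7 days. Depth, as recovered from the values and in units of 1000000 reads, was 32.5 and 29.9 for the IL-22 wells and 22.6 to 36.6 for the control wells. In RNA from whole wells, fewer cells of a type and less RNA per cell cannot be told apart. By exact symbol, none of 9 markers of epithelium (Epcam, Krt8, Vil1 and others) was among the listed genes. None of 8 haematopoietic or 7 mesenchymal and endothelial markers was either. The label of the tissue could thus not be checked on its defining markers, whose levels were not analysed here.

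Reg proteins are small secreted proteins built mostly of a single C-type lectin domain. Reg3g binds peptidoglycan of Gram-positive bacteria and helps keep bacteria away from the intestinal surface, and Reg3b acts on Gram-negative bacteria, while Reg1 and Reg4 are better known from tissue growth and regeneration. In the intestinal epithelium, IL-22 binds a receptor of Il22ra1 and Il10rb and signals through the transcription factor STAT3, and Reg3b and Reg3g are known targets of this route.

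Of the 6 genes, 5 lie in a cluster on mouse chromosome 6, and Reg4 lies on chromosome 3. In the order of their starts, counted from the start of Reg3b, the cluster holds Reg3b, Reg3d at 8.0 kb, Reg3a at 9.8 kb, Reg2 at 34.3 kb, Reg1 at 55.1 kb and Reg3g at 98.0 kb (RefSeq, GRCm38.p6). Genes of opposite direction were interleaved there: Reg3d, higher with IL-22, and Reg3a, lower with IL-22, start within 2 kb of each other on opposite strands. The strongly higher Reg3b and Reg3g stand at the ends of the cluster. Reg2, the close relative of Reg1 in the same cluster, was not among the listed genes, so its level is not known. The family below means the 6 listed genes.

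The promoter sequences are shown for the higher Reg3b and Reg3g and the lower Reg3a and Reg1, because they place the close likeness of the first pair beside neighbours that were lower. Each is the 150 bases before the annotated gene start, 5′ to 3′ on the gene's strand, from RefSeq on GRCm38.p6. Capitals mark matches to TATAAA, the TATA box that positions the start of transcription, and to TTCNNNGAA, the palindrome that STAT factors bind.
Reg3b (chr6:78370735-78370884, plus strand): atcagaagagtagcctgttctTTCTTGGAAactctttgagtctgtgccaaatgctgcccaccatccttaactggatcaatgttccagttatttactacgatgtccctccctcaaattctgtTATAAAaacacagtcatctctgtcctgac
Reg3g (chr6:78468875-78469024, minus strand): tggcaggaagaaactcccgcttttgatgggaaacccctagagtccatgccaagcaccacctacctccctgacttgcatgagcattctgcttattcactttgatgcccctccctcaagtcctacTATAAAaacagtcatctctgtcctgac
Reg3a (chr6:78380559-78380708, plus strand): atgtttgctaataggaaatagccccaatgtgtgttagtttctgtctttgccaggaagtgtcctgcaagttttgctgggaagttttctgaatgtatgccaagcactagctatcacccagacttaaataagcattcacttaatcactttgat
Reg1 (chr6:78425833-78425982, plus strand): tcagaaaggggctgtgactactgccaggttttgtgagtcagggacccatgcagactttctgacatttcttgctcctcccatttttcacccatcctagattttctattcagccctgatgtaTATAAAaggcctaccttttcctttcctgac

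In these windows Reg3b and Reg3g both carry TATAAA close to the gene start, followed by an almost identical stretch up to the start, and Reg1 carries it at a like distance. Over windows from 250 bases before to 50 bases after the start, searched on both strands, TATAAA was found in 3 of the 6 genes, Reg3b, Reg3g and Reg1, and in 13.6% of 32851 promoters of the RefSeq table. TTCNNNGAA was found in 2 of the 6, Reg3b at -129 and Reg3d at -238 from the start, and in 8.30% of all promoters. Reg3g, with the largest ratio of the family, had no match to TTCNNNGAA in its window, which says only that these letters are not there. The form with 4 bases between the arms was found in Reg1 at -244 and in 6.95% of all promoters. The letters of these motifs do not overlap one another in the printed windows.

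Promoter likeness did not sort the genes cleanly by direction of change. Aligned with free ends, the windows of Reg3b and Reg3g were identical at 69.9% of 296 aligned bases. Reg3g and the lower Reg3a were identical at 70.9% of 251 bases, with the annotated start of Reg3a offset by 47 bases in the alignment. Reg4 against the other 5 gave 54.1% to 59.4%, a level that shows what windows of a distant relative give. The stretch ending in the sequence tttgat is at the end of the Reg3a window and inside the Reg3g window, which is where this offset can be read in the letters above.

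The proteins grouped by subfamily more than by direction. Translated coding sequences of Reg3b and Reg3g were identical at 71.3% of aligned residues, the highest value among the 15 pairs of the 6 genes. Reg3a, lower with IL-22, was identical to Reg3b at 58.9% and to Reg3g at 58.6%, above Reg3d, higher with IL-22, at 52.0% and 50.0%. Reg1 was identical to the 4 Reg3 proteins at 42.4% to 47.0% and Reg4 to the other 5 at 30.1% to 39.2%. Reg1 had its closest relative outside the listed genes, Reg2, at 78.8%. Each of the 6 transcripts had 6 exons, and the proteins were 157 (Reg4) to 175 residues long.

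**Figure D1:**
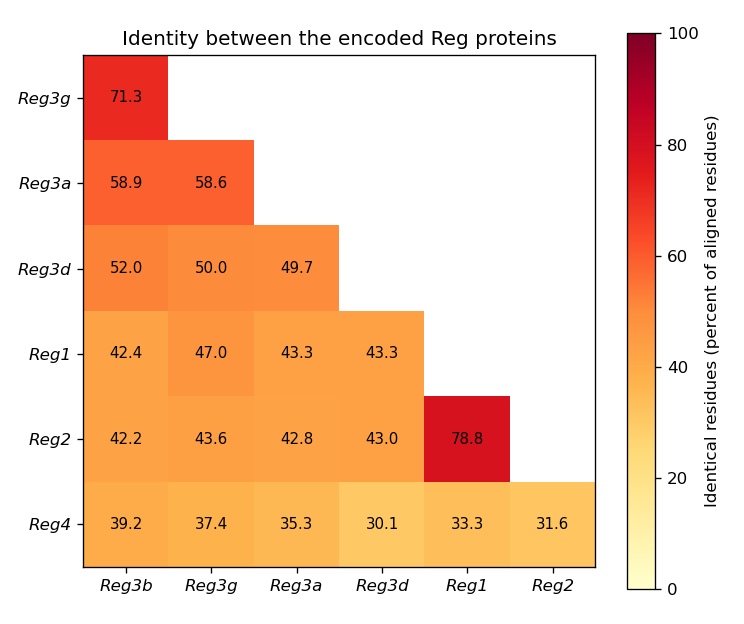
Protein identity between the Reg genes, as percent of aligned residues in translated coding sequences (GENCODE M21); rows and columns are genes, and the colour scale runs with the percent. The highest value among the 6 listed genes is 71.3% for Reg3b and Reg3g, and Reg3a is closer to both than Reg3d is.

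Few stretches of the transcripts were shared between the genes. Of all 31-base words in the transcript, 99.3% of Reg3b and 99.3% of Reg3g occurred in no other of 55450 annotated genes, and the shared ones were shared between these 2 genes. For Reg3d, Reg3a, Reg1 and Reg4 the share was 100%. The longest run of identical bases was 35 between Reg3b and Reg3g, and 24 between Reg3a and either of them. Neither the read length nor the counting of reads with several matches is given in the sources used here.

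With IL-22, Reg3b and Reg3g had the highest RPM of the 690 listed genes, not corrected for length, whereas Reg1 had the highest RPM of the family in controls. Levels are the authors' mean ± SEM in RPM, where 1 RPM is 1 read of the gene among 1000000 in the library. Values per well were recovered from these means and from the mean raw reads. They are exact for the IL-22 wells. For control wells of Reg3g and Reg3d they come from the only set of whole reads found, and for the other genes they are bounds.

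Reg3b (Entrez 18489), the lectin that acts on Gram-negative bacteria, had 26098 and 25998 RPM in the IL-22 wells, against a lowest control well of between 52.4 and 91.7 RPM and a highest of between 164 and 205 RPM. The IL-22 wells were both high and close to each other, and the lower of them stood 127-fold above the highest value a control well could have had, so the groups did not overlap, as in all 690 listed genes (100%). The authors' deposited table gives 26048 ± 50.0 RPM with IL-22 and 130.3 ± 26.2 RPM in controls, a ratio of 199.9. On the log2 scale the difference was 7.64 ± 0.29 (SE propagated from the SEMs over wells, with no variation between treated mice). Summed over libraries, 1624036 reads with IL-22 and 16069 in controls gave a ratio per depth of 198, with a 95% exact binomial interval of 195 to 201. Such intervals cover counting error only, since reads are pooled over wells and variation between wells or mice is left out. Reads were not tagged by molecule and the libraries had 15 cycles of PCR. The intervals may therefore be too narrow even for counting error.

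Reg3b was also the member whose control wells differed most. Its coefficient of variation (CV) over the control wells was 40.2%, and its highest control well stood at least 1.79-fold above its lowest. Of 162 listed genes with at least 1000 mean control reads, 4 had a higher CV, and the median was 10.7%. Which of the 2 control mice or wells were high could not be read from a mean and an SEM, and whether the mice differed was not tested.

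Reg3g (Entrez 19695), the lectin against Gram-positive bacteria, had 19342 and 19483 RPM in the IL-22 wells and 33.9, 30.9, 40.7 and 29.7 RPM in the control wells, given from the deepest control library to the shallowest. The control values come from 1240, 1088, 1115 and 673 reads, the only set of whole reads found to give the deposited mean and SEM. The IL-22 wells were both high and all 4 control wells low, and the lower IL-22 well stood 473-fold above the bound on the highest control well. In the authors' deposited table the means are 19413 ± 70.4 RPM with IL-22 and 33.8 ± 2.46 RPM in controls, a ratio of 575. The log2 difference was 9.17 ± 0.11, and the read ratio per depth was 575, with an interval of 557 to 593. Among the 267 listed genes higher with IL-22, Reg3g had the rank 2 by ratio and Reg3b the rank 4.

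Reg3d (Entrez 30053), a Reg3 gene known mainly from the pancreas in mice, had a higher but very low level. The IL-22 wells had 2.86 and 2.78 RPM (93 and 83 reads), and the control wells had 1.53, 1.19, 1.06 and 1.24 RPM (56, 42, 29 and 28 reads). Both IL-22 wells were above all 4 control wells, by 1.79-fold between the nearest bounds. The authors' deposited table gives 2.82 ± 0.0432 RPM with IL-22 and 1.25 ± 0.0998 RPM in controls, a ratio of 2.25. The log2 difference was 1.17 ± 0.12, and 176 against 155 summed reads gave a ratio per depth of 2.22, with an interval of 1.78 to 2.77. The log2 difference was 0.76 with 1 RPM added to both means and 0.32 with 5 RPM added. The unadjusted difference of 1.57 RPM was 0.0034% of the level of Reg3b and Reg3g together with IL-22. No 31-base word of Reg3d occurs in either of them, but the part that wrongly placed reads could have in so small a difference was not tested.

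Reg3a (Entrez 19694), whose human namesake REG3A is an antimicrobial lectin, was lower with IL-22. Its IL-22 wells had 109.8 and 108 RPM, against a lowest control well of 225 to 241 RPM and a highest of 273 to 289.8 RPM. The groups did not overlap, the lowest possible control well standing 2.05-fold above the higher IL-22 well. The authors' deposited table gives 109 ± 1.05 RPM with IL-22 and 259 ± 11.5 RPM in controls, a ratio of 0.421. The log2 difference was -1.25 ± 0.07, and the read ratio per depth was 0.415, with an interval of 0.405 to 0.426.

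Reg1 (Entrez 19692), first known from regenerating pancreatic islets, had the lowest ratio of the family. Its IL-22 wells had 92.4 and 93.8 RPM, against a lowest control well of 412 to 489 RPM and a highest of 589 to 656 RPM. All control wells were high and both IL-22 wells low, with a gap of 4.39-fold between the nearest possible values. The authors' deposited table gives 93.1 ± 0.690 RPM with IL-22 and 533 ± 41.2 RPM in controls, which is 5.73-fold lower with IL-22. The log2 difference was -2.52 ± 0.11, and the read ratio per depth was 0.172, with an interval of 0.167 to 0.176. Among the 423 listed genes lower with IL-22, Reg1 had the rank 43 by ratio, Reg4 the rank 248 and Reg3a the rank 279.

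Reg4 (Entrez 67709), a marker of enteroendocrine and deep crypt secretory cells, had 68.9 and 68.2 RPM in the IL-22 wells, against a lowest control well of 165 to 169 RPM and a highest of 174 to 178 RPM. Its control wells lay closest together in the family, with a CV of 2.69%, and 158 of the 162 listed genes with at least 1000 mean control reads varied more. The groups did not overlap, with a gap of 2.39-fold. The authors' deposited table gives 68.5 ± 0.329 RPM with IL-22 and 171 ± 2.31 RPM in controls, a ratio of 0.400. The log2 difference was -1.32 ± 0.02, and the read ratio per depth was 0.399, with an interval of 0.386 to 0.412.

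**Figure D2:**
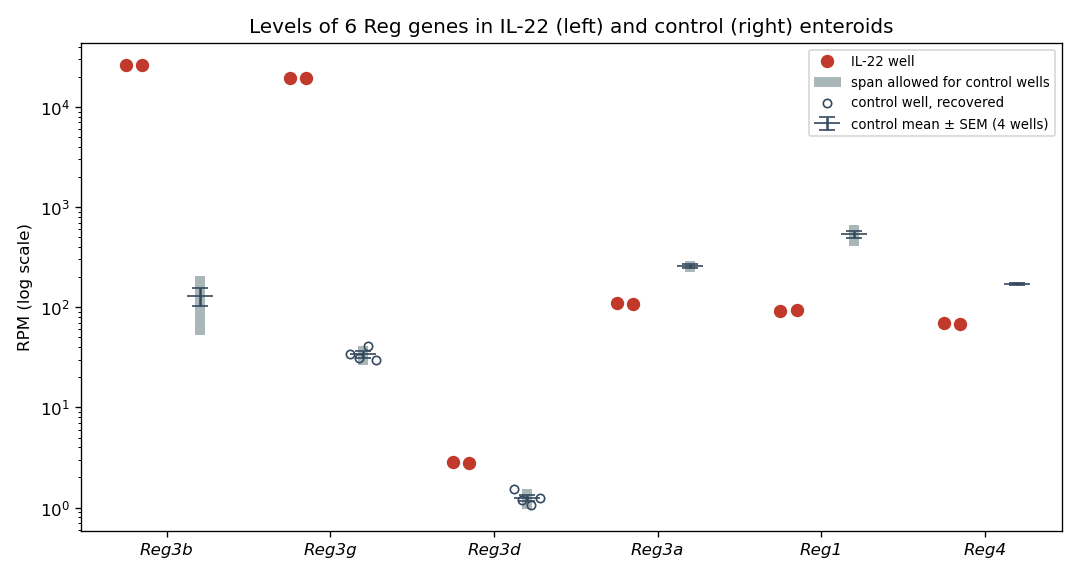
Levels of the 6 Reg genes in RPM on a log axis, IL-22 left of control for each gene; filled points are IL-22 wells, open points recovered control wells, dark bars the control mean ± SEM and grey bars the range that they allow for control wells. With IL-22, Reg3b and Reg3g stand at 26048 and 19413 RPM, whereas Reg3a, Reg1 and Reg4 lie below their control wells.

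In the table as a whole, more genes were listed as lower than as higher. The 3 Reg genes listed as higher stand beside 38.7% of the 690 genes, and the 3 listed as lower beside 61.3%. Because every listed gene was selected by the authors, all 690 (100%) had IL-22 wells outside the range that the mean and SEM allow for control wells, as the 6 Reg genes had. At least 4-fold higher were 2 of the 6, Reg3b and Reg3g, beside 13.2% of the listed genes. At least 4-fold lower was 1 of the 6, Reg1, beside 13.8%. The median fold of the listed genes was 3.15 among those higher and 2.70 among those lower, so Reg3d, Reg3a and Reg4 differed by less than the median of their direction. The rule used this contrast, and nothing is read from these counts.

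**Figure D3:**
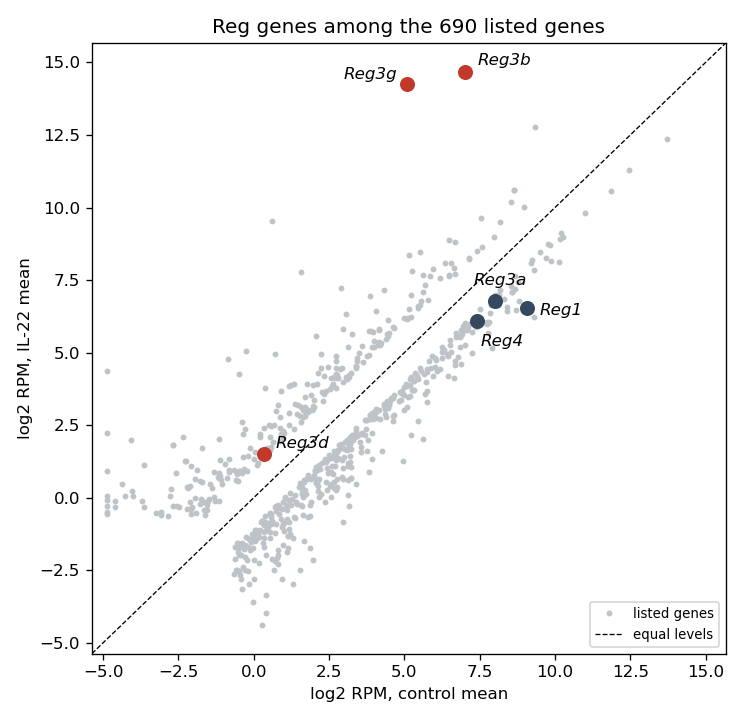
Mean level with IL-22 against mean level in controls for the 690 listed genes, both as log2 RPM; the 6 Reg genes are the large labelled points, and the dashed line marks equal levels. Reg3b and Reg3g lie above every other listed gene on the IL-22 axis, and Reg3a, Reg4 and Reg1 lie within the band of lower genes.

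The 6 listed genes as a set differed in size and in make-up. Reg2, whose level is not known, is in none of these sums and shares. Summed over the 6 genes, the authors' means came to 45734 RPM with IL-22 and 1128 RPM in controls, or 4.57% and 0.113% of the library's reads. Reg3b and Reg3g took up 45460.4 RPM with IL-22 and 164 RPM in controls. Reg3a, Reg1 and Reg4 together were at 270.4 RPM with IL-22 and 963 RPM in controls, a difference of 693 RPM beside one of 45296 RPM for Reg3b and Reg3g.

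Reg3b and Reg3g together made up 99.4% of the family's RPM with IL-22 and 14.5% in controls. Reg3b alone made up 57.0% with IL-22 and 11.5% in controls, and Reg3g 42.4% with IL-22 and 2.99% in controls. Reg1, the highest of the 6 listed genes in controls, made up 0.203% with IL-22 and 47.2% in controls. Reg3a made up 0.238% with IL-22 and 22.9% in controls, and Reg4 made up 0.150% with IL-22 and 15.2% in controls. The ratio of Reg3b to Reg3g in RPM was 1.34 with IL-22 and 3.86 in controls, so the 2 genes were closer in RPM with IL-22. A library share of this size lowers the RPM of every other gene by 4.53%. With the reads of Reg3b and Reg3g taken out of the library totals, a step chosen after seeing the data, the log2 difference was -1.18 for Reg3a, -2.45 for Reg1 and -1.26 for Reg4.

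**Figure D4:**
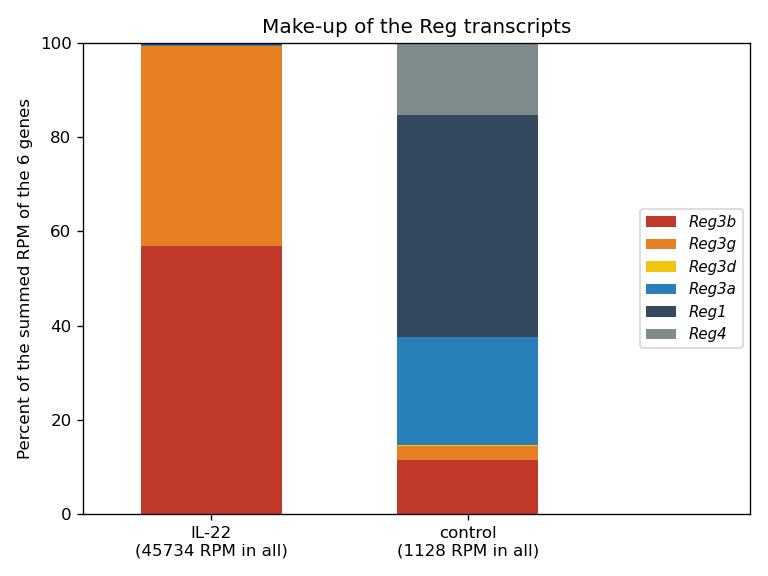
Share of each Reg gene in the summed RPM of the 6 genes, IL-22 left of control, with the percent of the family's RPM on the vertical axis. With IL-22, Reg3b and Reg3g fill 99.4% of the bar, and in controls Reg1, Reg3a and Reg4 fill most of it.

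RPM is not corrected for length, so the levels of the Reg genes were set against each other as RPM per kb of the GENCODE M21 transcript. With IL-22 the order was Reg3b at 33267 ± 63.9, Reg3g at 25178 ± 91.3, Reg3a at 132 ± 1.27, Reg1 at 121 ± 0.897, Reg4 at 67.1 ± 0.322 and Reg3d at 3.61 ± 0.0552 RPM per kb (SEM). The wells of neighbours in this order did not overlap. In controls the order was Reg1 at 693 ± 53.6, Reg3a at 314 ± 14, Reg4 at 168 ± 2.26, Reg3b at 166 ± 33.4, Reg3g at 43.8 ± 3.19 and Reg3d at 1.60 ± 0.128 RPM per kb. Reg4 and Reg3b did not differ beyond their spread in controls, and the possible values of the other neighbours did not overlap. Reg3b and Reg3g thus ranked below Reg1 and Reg3a in controls and above them with IL-22, while Reg3d had the lowest level in both groups.

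**Figure D5:**
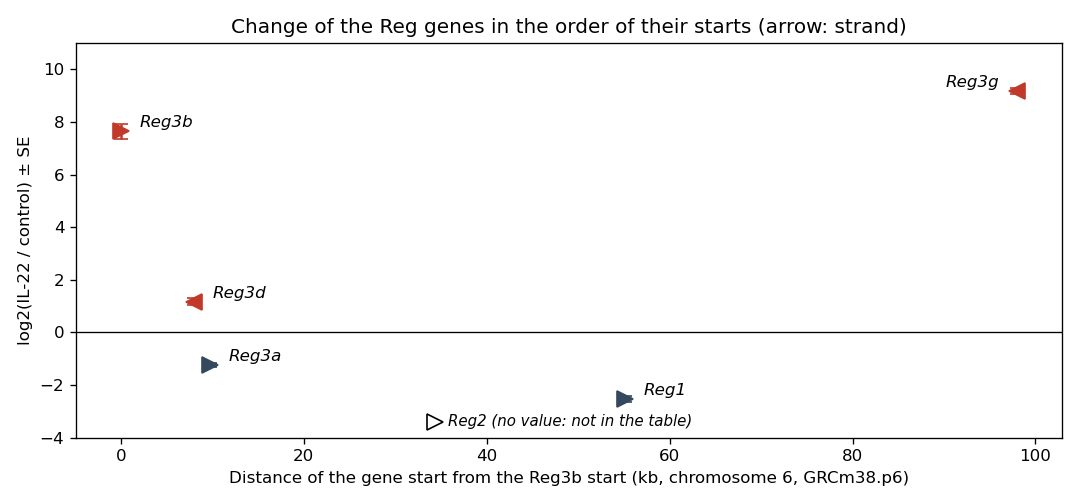
Log2 ratio of IL-22 to control (± SE) of the chromosome 6 Reg genes against the distance of the gene start from that of Reg3b in kb; arrowheads point along the strand, and the open symbol is Reg2, which has no value. Reg3b at 7.64 and Reg3g at 9.17 stand at the ends, with Reg3d at 1.17, Reg3a at -1.25 and Reg1 at -2.52 between them.

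Among other genes, the listed ones nearest to each Reg gene by distance between the mean log2 RPM values of the 2 conditions were taken from 350 candidates that had a gene symbol and reached 5 RPM in either group mean. Rows with only a number, a gene model name or no name were left out, and 1 such row lay nearer to Reg3a, and 1 nearer to Reg3b, than the second gene named for each. The 6 Reg genes were not themselves candidates, so their distances to each other are not considered here. Among the candidates, Reg3b and Reg3g had no close neighbour. The nearest was Dmbt1, a mucosal scavenger receptor protein, at distances of 3.01 and 4.52. Sprr2a, a small proline-rich protein, followed at 4.39 and 5.10. Reg3d, itself below 5 RPM, was nearest to Capg at 0.91 and Myl7 at 1.02 among these candidates, but 21 listed genes below 5 RPM lay nearer to it than Capg. Reg3a lay nearest to Alpi, the intestinal alkaline phosphatase of the brush border, at 0.05, and to Gvin1 at 0.15. Reg1 lay nearest to the peptidase gene Mme at 0.35 and to Gstm1 at 0.36, and Reg4 to Cyp4v3 at 0.18 and Ephx1 at 0.19. The deposited title of the Cyp4v3 row names a different gene, Kallikrein B.

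Of 32 other genes of antimicrobial and mucosal defence, 9 were listed under the exact symbol searched. All 9 were higher with IL-22, as Reg3b, Reg3g and Reg3d were, and as 38.7% of the 690 listed genes were. The list was chosen with earlier results of these data known. A gene listed under another name would be missed. For example, Sprr2a3 was searched, whereas the listed row is named Sprr2a, with a ratio of 3.86, and is not counted here. In the authors' deposited table Dmbt1 had 6949 ± 725 RPM with IL-22 and 653 ± 8.19 RPM in controls. The ratios of Pla2g2a, Mmp7, Nos2, Duox2 and Duoxa2 in the authors' deposited table ran from 4.36 to 50.4, and Retnlb, Lcn2 and Saa3 had 1, 6 and 9 control reads in all, so their single ratios are not given. The median log2 difference was 3.41 over the 6 genes with at least 10 control reads and 3.58 over all 9. It was -1.12 over the 690 listed genes, of which 61.3% were lower. Since all 9 were higher, the nearer comparison is the 267 listed genes higher with IL-22. Their median fold was 3.15 on the unlogged scale.

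Of 16 genes of the IL-22 receptor and STAT3 route, 2 were listed by symbol, both higher, as were 38.7% of the 690 listed genes. Socs3, its feedback inhibitor, had 80.2 ± 12.4 RPM with IL-22 and 8.32 ± 0.246 RPM in controls in the authors' deposited table. Stat3 had 90.9 ± 7.26 RPM with IL-22 and 35.7 ± 1.33 RPM in controls there. Of 14 other C-type lectin genes, 1 was listed, Mrc1, with 2.53 RPM with IL-22 and 1.00 RPM in controls in the authors' deposited table. Neither Reg2 nor Extl3, a proposed receptor of Reg proteins, was listed.

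Markers of cell types that express Reg genes were listed as well. The counts here are of exact symbols, so a marker listed under another name would be missed. The marker lists were chosen with earlier results of these data known. Of 9 Paneth cell markers, 2 were listed by symbol, Mmp7 and Pla2g2a, whose summed level was 253 RPM with IL-22 and 45.2 RPM in controls. Of 9 markers of absorptive enterocytes, 5 were listed and all 5 were lower (Alpi, Lct, Fabp2, Apoa4 and Treh), as were 61.3% of the 690 listed genes. The summed level of these 5 markers was 789 RPM with IL-22 and 1896 RPM in controls. Of 10 enteroendocrine markers, the cells in which Reg4 is known, none was listed, nor was any of 7 goblet cell markers. Of 5 stem cell markers, 2 were listed: Olfm4 was at 1525 RPM with IL-22 and 3703 RPM in controls, and Prom1 at 394 RPM with IL-22 and 189 RPM in controls, in the authors' deposited table. Of 12 markers of pancreatic acinar cells, a site of Reg1 and Reg3d, 1 was listed, Ctrb1, with 0.303 ± 0.0355 RPM with IL-22 and 3.65 ± 0.204 RPM in controls in the authors' deposited table. The part of these shifts in the levels of the Reg genes was not tested.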

How the data were processed

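The authors' deposited table gives, per gene, the group mean, the SEM, the mean raw reads, a fold or ratio of the means and p-values. The unit of the means, RPM, was inferred from the deposited values and is on no header. BWA 0.5.9 and Picard 1.58 are named, per the submitters' processing notes. No genome build, annotation or counting rule is given in the sources used here. Polyadenylated RNA was sequenced as single reads after 15 cycles of PCR, per the labels' protocols. The deposited p-values were not used, because this contrast chose the genes. Listed genes had a mean count of at least 20.0 raw reads in the higher group and a fold of at least 2.00, in the deposited table. A count test could not be run on group means.

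Library depths and values per well were recovered from the deposited means, SEMs and mean read counts. For all 593 genes with under 2000 mean IL-22 reads, both IL-22 values fell within 0.01 of a whole read. In controls, whole reads reproduced all 370 genes with up to 200 mean reads, 360 of them by 1 set only, and a library with no read carried the value of 1 read. Of the 6 Reg genes only Reg3d lay within these limits, with 88.0 mean IL-22 reads and 38.8 mean control reads. These counts therefore do not cover the other members. Recovered values are tied to depth, not to a labelled well. The recovery was tested on simulated data. The SE of a log2 ratio was propagated from the SEMs over wells. As the IL-22 wells came from 1 mouse, it holds no variation between treated mice. Counting intervals are 95% exact conditional binomial intervals.

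Sequences came from RefSeq (GRCm38.p6), matched by symbol for 6 of 6 genes. Protein identity came from GENCODE M21 coding sequences, not from RefSeq proteins as planned (Biopython 1.88, global alignment). The members and lists were chosen with earlier results of these data known. List genes were matched by exact symbol, so a gene listed under another name is counted as not listed. The genes named are the 6 members, the listed genes of the lists, and, per member, the 2 nearest of the listed genes whose higher group mean is 5 RPM or more and whose symbol is not a gene model. Python 3.11.15, NumPy 2.4.6 and SciPy 1.17.1 were used. The alternatives were 1 or 5 RPM added to the means, summed reads, wells left out, a 4-fold threshold, at least 10 mean reads in both groups, another total and other ways of counting identity and motifs.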

Additional observations from a re-analysis of the deposited data

How the results depend on the processing

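All 6 Reg genes kept their direction under every alternative, but several alternatives could not have changed it. Adding the same RPM to both means cannot reverse a difference. The IL-22 wells of all 690 listed genes lie outside the range allowed for control wells. Leaving out a well or summing reads therefore could not reverse a difference either. With 1 RPM added to both means, the log2 difference of Reg3d was 0.76, and with 5 RPM it was 0.32, against 1.17 without. For Reg4 it was -1.26 with 5 RPM added, and also -1.26 with the reads of Reg3b and Reg3g taken out of the library totals, an alternative chosen after seeing the data, against -1.32. At a 4-fold threshold, 2 members were higher in place of 3, beside 13.2% of the listed genes. At the same threshold 1 member was lower in place of 3, beside 13.8%. The share of the family per summed RPM of the listed genes was 50.0% with IL-22 and 1.89% in controls. With 4 bases between the arms, the STAT palindrome was in 1 member, Reg1, and in 6.95% of all promoters. With 3 bases it was in 2 different members, Reg3b and Reg3d, and in 8.30% of all promoters. Leaving out 1 well gave log2 differences of 7.38 to 7.97 for Reg3b, 9.06 to 9.28 for Reg3g, 1.06 to 1.29 for Reg3d, -1.31 to -1.18 for Reg3a, -2.62 to -2.40 for Reg1 and -1.34 to -1.30 for Reg4, the control side as bounds. No paired analysis was possible because the deposited table holds group means only, with no value tied to a labelled well. Depth limits Reg3d most, with 155 control reads in all.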
